A study of Mus musculus with 2 samples.

Results

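The 10 genes described here are those of the G1 cyclins, their kinases and the phosphatases that activate them: the D cyclins Ccnd1, Ccnd2 and Ccnd3, cyclin E1 (Ccne1), cyclin A2 (Ccna2), the cyclin-dependent kinases Cdk2, Cdk4 and Cdk6, and the phosphatases Cdc25a and Cdc25b. They were chosen by symbol, by matching NCBI gene identifiers in the count tables, and all 10 were found among 36528 identifiers. Mouse epidermal cells were compared in 2 droplet single-cell RNA libraries, 1 labelled wild type and 1 labelled knockout for Bap1, which encodes a deubiquitinase of histone H2A. Both came from C57BL/6 neonates at postnatal day 1 that carried CreERT2, a recombinase switched on by tamoxifen, at the Rosa26 locus. The first pooled 11 neonates with unmodified Bap1 and the other 9 neonates with floxed Bap1 on both alleles. Both cultures, controls included, received 100 nM 4-hydroxytamoxifen for 4 days and were collected 3 days after its removal. They were kept in medium M254 with a melanocyte growth supplement.

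Cells enter the cycle when growth signals raise D cyclins, which bind CDK4 and CDK6 and phosphorylate the retinoblastoma protein. E2F factors are then released and turn on genes of S phase, cyclin E and cyclin A2 among them, whose partner is CDK2. CDC25 phosphatases remove inhibitory phosphates from these kinases, and CDK inhibitors hold them back. In epidermis, basal keratinocytes divide, and cells leave the cycle as they move up and differentiate.

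The libraries held 1926 and 1760 cells with 77579465 and 64954113 unique molecular identifiers (UMIs, each counting 1 captured RNA molecule), with medians of 37223 and 33585 UMIs per cell. Cells of both were clustered together into 10 clusters. Clusters 0 to 5, called keratin-rich here, held 1747 and 1579 cells. They are the clusters with keratinocyte or dividing-cell markers or with no marker set, and keratin level was not part of this rule. Cluster 1 was the largest in the library labelled as wild type (650 cells) and cluster 5 in the other (638 cells). Cluster 0 was marked by suprabasal keratinocyte genes (8 of 10 stood at least 5-fold above the mean of the remaining clusters) and cluster 3 by genes of dividing cells. Clusters 1, 2, 4 and 5 had no marker set of their own and are called by number. Cluster 6 mixed fibroblast and muscle markers and has no name, and clusters 7, 8 and 9 were myeloid-like, melanocyte-like and Schwann-like. Levels are given as CPM, the UMIs of a gene per 1000000 UMIs of the cells summed. In the library labelled as knockout, cluster 5 held Krt5 at 241 and Krt14 at 2222, and the melanocyte-like cluster at 249 and 1520. Bap1 RNA over clusters 0 to 5 stood at 14.0 CPM in the library with the wild-type label and 19.6 CPM in the other, against the direction of the labels. The deposited 3′ counts do not show whether the deleted exons were present, so the libraries are called the wild-type-labelled and the knockout-labelled library. The libraries shared 3 cell barcodes. With 1 library per group there is no spread between replicates and no test. All intervals are at 95% and cover counting error only.

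Over clusters 0 to 5 together, cyclin E1, cyclin A2 and Cdc25b were lower in the knockout-labelled library, Ccnd2 and Cdk4 were somewhat higher, and the other 5 genes were somewhat lower. Ratios are the knockout-labelled library over the other. Of the 10 genes, 3 were at least 1.5-fold lower, where 17.5% of the 16729 genes with at least 20 UMIs were, and 0 were at least 1.5-fold higher, where 7.66% were. At a 2-fold limit the counts were 2 lower, beside 9.13% of all genes, and 0 higher, beside 3.13%. Against that share, 3 of 10 is a count too small to call particular to these genes. The median log2 ratio of all genes tested was -0.018.

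**Figure D1:**
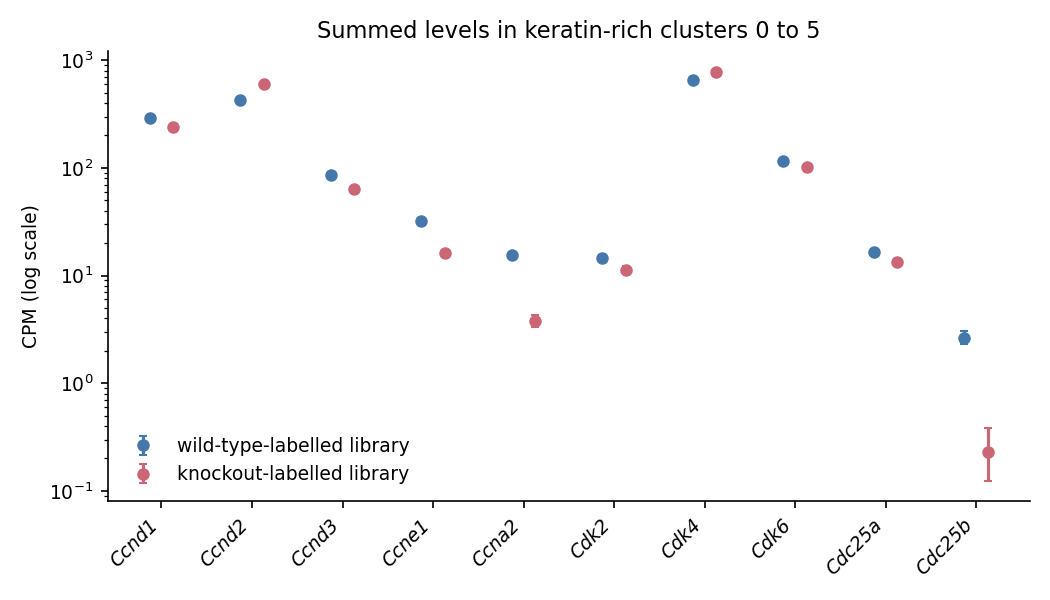
Level of each gene in keratin-rich clusters 0 to 5 summed, in CPM on a log axis, for the wild-type-labelled library (blue) and the knockout-labelled library (red). Points are sums over 1 library and bars are exact Poisson intervals, often smaller than the point. Ccna2 (15.4 and 3.79) and Cdc25b (2.65 and 0.228) lie furthest apart.

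The D cyclins link growth signals to the cycle, and the 3 genes differed in direction between the libraries. Ccnd1 maps to chromosome 7 (144929931 to 144939831, GRCm38, the assembly of all coordinates here). It stood at 291 CPM in the wild-type-labelled library and 240 in the knockout-labelled library, a log2 ratio of -0.28 (-0.31 to -0.25). Ccnd2, on chromosome 6 at 127125162 to 127152188, went the other way, from 427 to 597 CPM, a ratio of 1.40 and a log2 ratio of 0.48 (0.46 to 0.50). Ccnd3, on chromosome 17 at 47505051 to 47599689, stood at 85.6 and 63.8, a log2 ratio of -0.43 (-0.48 to -0.37). All D cyclin UMIs together came to 804 and 901 CPM over clusters 0 to 5. Their total was lower in the knockout-labelled library in 4 of these 6 clusters, such as cluster 3 (1100 and 862), and higher in cluster 0 (377 and 447) and in cluster 5 (1003 and 1177), which held 53 and 638 cells.

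The make-up of the D cyclin pool therefore differed between the libraries. A 3′ library counts a molecule once whatever its length, so UMIs of the 3 genes were added up, and only shares of the same gene are compared. Ccnd2 gave 53.2% (52.8 to 53.6, Clopper-Pearson) of D cyclin UMIs in the wild-type-labelled library and 66.3% (65.9 to 66.7) in the knockout-labelled library. Ccnd1 gave 36.2% and 26.6%, and Ccnd3 10.66% and 7.08%. The share of Ccnd2 was higher in the knockout-labelled library in each of clusters 0 to 5, with the smallest gap in cluster 3 (36.7% and 42.0%) and the widest in cluster 0 (42.7% and 58.3%). It was higher in unnamed cluster 6 too, at 60.8% (58.0 to 63.4) and 69.8% (66.3 to 73.1). In the myeloid-like cluster it was 36.9% and 40.4%, with intervals that overlapped. In the melanocyte-like cluster it was 60.95% and 57.7%, and in the Schwann-like cluster 34.9% and 33.4%. In the myeloid-like cluster Ccnd3, the D cyclin prominent in blood cells, gave 48.4% and 48.3%, against 10.66% and 7.08% over clusters 0 to 5.

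**Figure D2:**
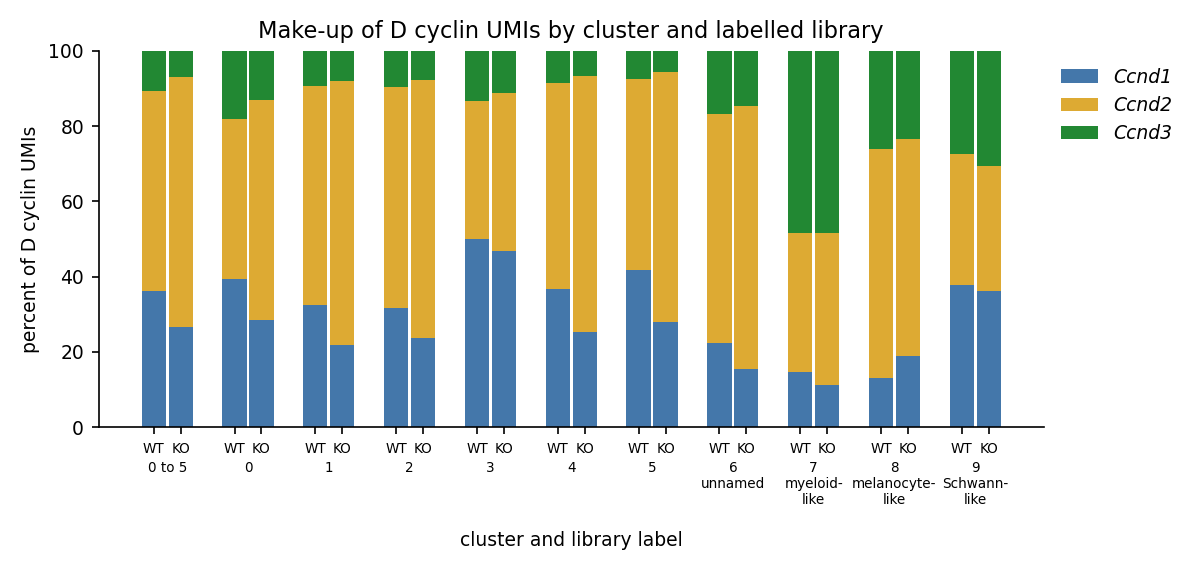
Percent of D cyclin UMIs from Ccnd1, Ccnd2 and Ccnd3 in clusters 0 to 5 together and in each cluster, with the wild-type-labelled library (WT) left and the knockout-labelled library (KO) right in each pair. Bars add to 100. In each of clusters 0 to 5 the Ccnd2 segment is larger on the right, 53.2% against 66.3% over all 6.

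Ccnd1 was lower in the knockout-labelled library in 6 of 6 keratin-rich clusters, with each interval below 0. Clustered without cycle genes (the members and the lists named under Ccna2) it was lower in 6 of 7 such clusters and higher in 1. The higher cluster stood at 148 and 364 CPM with 13 and 450 cells. In the suprabasal cluster the mean of the cells' own levels was 131 and 137, the other direction. The gap was widest in cluster 1, where it stood at 260 and 153 CPM, 1.70-fold lower, and reached 1.55-fold in cluster 4, at 337 and 218. In both libraries it was highest in dividing cluster 3 and in the Schwann-like cluster (549 and 499 in the wild-type-labelled library, 404 and 408 in the other), whose intervals overlapped. It was lowest in myeloid-like cells, at 29.4 and 28.0. Its 3′ end overlaps LTO1 by 818 bases, and LTO1 stood at 21.4 and 18.5 in clusters 0 to 5; without a stated strand, reads of such a pair cannot be told apart. The suprabasal cluster 0 was the lowest of the keratin-rich clusters, at 148 and 127.

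Ccnd2 was higher in the knockout-labelled library in 5 of 6 keratin-rich clusters and lower in cluster 3, at 404 and 362 CPM (log2 ratio -0.16, -0.29 to -0.02). In cluster 0 it stood at 161 and 261, 1.62-fold higher, and in cluster 5 at 511 and 781, 1.53-fold higher. Clusters 1 and 2 showed only 463 and 494, and 560 and 598, and the median cell of cluster 1 held 388 and 375. Clustered without cycle genes, Ccnd2 was higher in 5 of 7 keratin-rich clusters and lower in 2. The higher Ccnd2 of the knockout-labelled library was thus uneven over the clusters, and the median cell of clusters 0 to 5 held 348 CPM in the wild-type-labelled library and 502 in the other. Cells varied more than this gap, since the quartiles were 167 and 588 in the first and 259 and 797 in the second.

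Ccnd3 was lower in 6 of 6 keratin-rich clusters, in 5 with the interval below 0, and in 5 of 7 when clustered without cycle genes. The gap passed 1.5-fold in cluster 3, where Ccnd3 stood at 147 and 96.1 CPM (1.53-fold lower). Its highest levels were outside clusters 0 to 5, with 364 and 344 in the Schwann-like cluster and 277 and 336 in the melanocyte-like cluster, whose intervals overlapped in both libraries. The keratin-rich clusters other than 3 held between 56.7 and 92.1. Its 3′ end overlaps that of Bysl on the opposite strand by 359 bases, and Bysl stood at 39.6 and 39.1 in clusters 0 to 5.

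Cdk4 and Cdk6 are the kinases that D cyclins activate, and they had opposite directions over clusters 0 to 5 together, though not in each cluster. Cdk4, on chromosome 10 at 127063535 to 127067288, stood at 659 and 783 CPM in clusters 0 to 5, a log2 ratio of 0.25 (0.23 to 0.27). It was higher in the knockout-labelled library in 5 of 6 keratin-rich clusters, most in cluster 5 (673 and 978, a ratio of 1.45), and slightly lower in cluster 1 (746 and 707). In both libraries the suprabasal cluster 0 had the lowest level of the keratin-rich clusters, at 333 and 375. These values are uncertain. A further identifier, 102641469, which had no symbol in the RefSeq table, carried 100987 UMIs beside 101329 for Cdk4, with equal counts in 3364 of 3686 cells, so both rows may draw on the same reads.

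The bases just before the Cdk4 start are shown because they hold 4 E-box matches (CACGTG, a palindrome, so both strands read alike), in capitals. In all, 6.02% of 32851 RefSeq windows of 250 bases held at least 1 such match, and 7 windows (0.0213%) held 4 or more. The stretch covers chr10:127063285-127063533 on the + strand of GRCm38.p6.
Cdk4: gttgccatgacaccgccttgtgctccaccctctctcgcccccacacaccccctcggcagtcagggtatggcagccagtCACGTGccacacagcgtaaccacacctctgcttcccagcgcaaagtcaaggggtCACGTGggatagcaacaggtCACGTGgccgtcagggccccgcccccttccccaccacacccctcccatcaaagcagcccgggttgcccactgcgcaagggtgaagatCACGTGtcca
A match is a description of the letters, and binding was not measured here.

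Cdk6, on chromosome 5 at 3341004 to 3531008, stood at 117 and 102 CPM in clusters 0 to 5, a log2 ratio of -0.19 (-0.23 to -0.14). It was lower in 4 and higher in 2 of these 6 clusters. Clustered without cycle genes, Cdk6 was lower in 4 of 7 keratin-rich clusters and higher in 3. Its level was highest in cluster 4 in both libraries, at 300 and 195, above every other cluster with intervals apart. Cells of cluster 4 were shallow, with medians of 18019 and 19892 UMIs against 39612 and 35581 over clusters 0 to 5. Whether depth or cell quality has a part in the Cdk6 level there was not tested. Among the keratin-rich clusters, cluster 4 also had the widest gap in Cdk6 between libraries, 1.54-fold lower in the knockout-labelled library. Cluster 2 stood at 109 and 75.2, while cluster 0 went the other way at 79.1 and 117 (a ratio of 1.47). Cdk6 therefore gave 32.6% and 20.2% of the UMIs of both kinases in cluster 4, against 15.04% and 11.6% over clusters 0 to 5, where the Cdk4 part carries the doubt stated above. Outside the keratin-rich clusters Cdk6 lay between 39.8 and 63.0.

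Cyclin E1 and its kinase Cdk2 act at the entry into S phase. Ccne1, on chromosome 7 at 38097984 to 38107490, stood at 32.1 CPM (2379 UMIs) in the wild-type-labelled library and 16.3 (1005 UMIs) in the knockout-labelled library. It was 1.97-fold lower, a log2 ratio of -0.98 (-1.08 to -0.87). With equal weight for each of the 6 clusters it was 1.43-fold lower and no longer past 1.5-fold. Cluster 3, marked by genes of dividing cells, held 34.3% of its UMIs in the first library and 10.9% in the other.

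Cyclin E1 was lower outside the dividing cluster 3 as well. It stood at 22.1 and 7.80 in cluster 0 (2.84-fold lower), at 22.9 and 10.9 in cluster 1 (2.097-fold lower) and at 25.1 and 14.3 in cluster 5 (1.75-fold lower). Cluster 2 showed hardly any gap, at 26.2 and 24.98 (log2 ratio -0.07, -0.30 to 0.17). In the dividing cluster 3, where it was highest in both libraries, it stood at 97.9 and 77.2 (log2 ratio -0.34, -0.64 to -0.05). Outside clusters 0 to 5 it was lower in the Schwann-like cluster, at 93.6 and 30.5 on 77 and 13 UMIs, and in the melanocyte-like cluster, at 35.8 and 18.3 on 19 and 25 UMIs.

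Cdk2, on chromosome 10 at 128697938 to 128705051, stood at 14.6 and 11.3 CPM in clusters 0 to 5, a log2 ratio of -0.37 (-0.51 to -0.23). It was lower in 3 and higher in 3 of these clusters. The gap passed 1.5-fold in cluster 3, at 31.2 and 18.2 (1.71-fold lower, on 260 and 26 UMIs). Over all cells kept, whatever the cluster, the levels were 17.6 and 17.7. The melanocyte-like cluster, with 28 cells in the first library and 72 in the other, held 148 of 1362 and 383 of 1144 of these UMIs.

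Melanocyte-like cells had the highest Cdk2 in both libraries, at 279 and 280 CPM, followed by Schwann-like cells at 116 and 110, each with intervals apart from the next cluster. All other clusters held between 8.79 and 31.2. The Cdk2 gene lies wholly inside the span of Pmel, a pigment cell gene on the opposite strand (chromosome 10 at 128695888 to 128720238). Whether counting used strand is not given in the sources used here, so reads of Pmel could have been counted for Cdk2. Pmel stood at 9591 and 8097 in the melanocyte-like cluster, at 227 and 298 in the Schwann-like one and at 72.6 and 65.7 in clusters 0 to 5. Per 100 Pmel UMIs there were 2.91 and 3.46 Cdk2 UMIs in the melanocyte-like cluster. The Schwann-like cluster had 50.8 and 37.0, and cluster 3 had 43.1 and 31.7. Cell by cell, Pmel was the identifier whose counts came closest to those of Cdk2, at a Pearson correlation of 0.628 over 3686 cells. Neither measure tells Pmel reads from Cdk2 RNA. The part of Pmel reads in the melanocyte-like level was not tested.

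Cyclin A2 drives S phase and the entry into mitosis. Ccna2, on chromosome 3 at 36564865 to 36573038, stood at 15.4 CPM (1140 UMIs) and 3.79 (233 UMIs) in clusters 0 to 5, 4.06-fold lower in the knockout-labelled library (log2 ratio -2.02, -2.23 to -1.82). Almost all of these UMIs lay in dividing cluster 3, 88.5% in the first library and 79.4% in the other. Within that cluster the levels differed by less than counting error, at 121 and 130 (log2 ratio 0.10, -0.13 to 0.33). Cycle genes took part in the clustering, which favours like levels there. With equal weight for each cluster the log2 ratio was 0.02 and Ccna2 was no longer past 1.5-fold.

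Cells were also clustered without 91 genes: the members, partner cyclins and kinases, S phase genes under E2F, and G2 and M phase genes. The cycling cluster then held 138 of 1746 keratin-rich cells (7.90%, 6.68 to 9.27) in the wild-type-labelled library and 20 of 1581 (1.27%, 0.774 to 1.95) in the knockout-labelled library. Cycle genes outside those lists, such as Cdkn3 and Foxm1, were not left out and could still take part. All cells of that cycling cluster lay in cluster 3. In the other 5 keratin-rich clusters Ccna2 was low in both libraries, from 1.78 to 3.14 in the first and from 0.263 to 1.11 in the second. Without cluster 3 it was 2.49-fold lower. After each cell was thinned to 2000 UMIs, 44 of 1747 cells (2.52%) and 11 of 1579 (0.697%) held a Ccna2 UMI. In the differentiated cluster 0, with median depths of 35264 and 35875 UMIs, 2 of 327 (0.612%) and 1 of 222 (0.450%) did. Cluster 3 held 37 of the 44 and 10 of the 11 cells, which were 24.5% (17.9 to 32.2) and 40% (21.1 to 61.3) of its 151 and 25 cells. Unthinned, at medians of 39612 and 35581 UMIs per cell, 14.7% and 4.24% of the cells of clusters 0 to 5 held one.

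Schwann-like cells ranked next to cluster 3 for Ccna2, at 85.1 and 67.9 CPM, and melanocyte-like cells after them, at 39.6 and 26.3. The interval of the ratio held 0 on the log2 scale in both. Myeloid-like cells had 13 UMIs in the wild-type-labelled library and 0 in the other, where 3 UMIs would have been 8.41 CPM. The 3′ ends of Ccna2 and Exosc9, on opposite strands, overlap by 863 bases. Exosc9 stood at 60.4 and 64.5 in cluster 3 and at 65.4 and 71.2 over clusters 0 to 5.

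CDC25 phosphatases switch on the kinases above, Cdc25a mainly in G1 and S phase and Cdc25b mainly before mitosis. Cdc25a, on chromosome 9 at 109875518 to 109893895, stood at 16.7 and 13.3 CPM in clusters 0 to 5, a log2 ratio of -0.33 (-0.46 to -0.20). It was lower in 5 of 6 keratin-rich clusters, in 3 with the interval below 0, and 1.67-fold lower in cluster 4 (19.8 and 11.8 on 102 and 64 UMIs). Over all 10 clusters its level ranged from 10.2 to 30.8 in the wild-type-labelled library, and no neighbours in that order had intervals apart. Cluster 3 led it, and in the other library Schwann-like cells did, at 32.8 on 14 UMIs, before cluster 3 at 23.9.

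Cdc25b, on chromosome 2 at 131186436 to 131198511, had the lowest counts of the members and the widest ratio. It stood at 2.65 CPM (196 UMIs) in the wild-type-labelled library and 0.228 (14 UMIs) in the knockout-labelled library, 11.6-fold lower (log2 ratio -3.54, -4.44 to -2.76). Cluster 3 held 74.0% (67.2 to 80.0) and 57.1% (28.9 to 82.3) of these UMIs. Within that cluster, where Ccna2 was level, Cdc25b was lower too, at 17.4 on 145 UMIs and 5.61 on 8 UMIs, 3.10-fold lower (log2 ratio -1.63, -2.87 to -0.62). With equal weight for each cluster, again set mostly by cluster 3, the gap was 3.49-fold. After thinning to 8000 UMIs it was 6.63-fold and over all cells kept 6.06-fold. Clusters 0, 1 and 2 held 14, 25 and 8 UMIs in the first library and 1 each in the other. In cluster 1 the log2 ratio was -3.18 (-8.54 to -0.57). Schwann-like cells, with 10 and 5 UMIs, stood at 12.2 and 11.7 CPM (log2 ratio -0.05, -1.95 to 1.63).

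Sequence before a RefSeq transcript start of the phosphatase genes and of Cdk2 is shown for the elements that many cycle genes carry. Searched on both strands were E2F-type sites (TTTCCCGC, TTTCGCGC, TTTGGCGC, TTTGCCGC, in 1.86% of all windows), CHR elements (TTTGAA and also TTCGAA, in 17.1%) and CCAAT boxes (in 33.8%). Matches are in capitals, on the reverse strand where they read ATTGG or GCGGGAAA. RefSeq windows were found for 7 of the 10 genes, not for Ccnd1, Ccnd2 and Ccna2. The Cdc25a stretch covers chr9:109875329-109875519 (+), the Cdc25b stretch chr2:131186908-131186937 (+) and the Cdk2 stretch chr10:128705173-128705202 (-), all in GRCm38.p6. The Cdc25b stretch lies inside the gene's full span, since that start is not the gene's first, and the Cdc25a stretch reaches just past the first base of its span.
Cdc25a: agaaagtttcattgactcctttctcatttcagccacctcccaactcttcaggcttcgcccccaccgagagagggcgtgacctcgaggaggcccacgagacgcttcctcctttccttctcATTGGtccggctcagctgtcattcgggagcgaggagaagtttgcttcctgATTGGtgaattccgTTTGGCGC
Cdc25b: accggcgcccccATTGGtggcgtctggcgg
Cdk2: aaccaggaactGCGGGAAAgttgtgcagct
The Cdc25a stretch holds 1 E2F-type match and 2 reversed CCAAT boxes. No CHR match was found in the windows of the 7 genes, which says only that these letters are absent there.

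**Figure D3:**
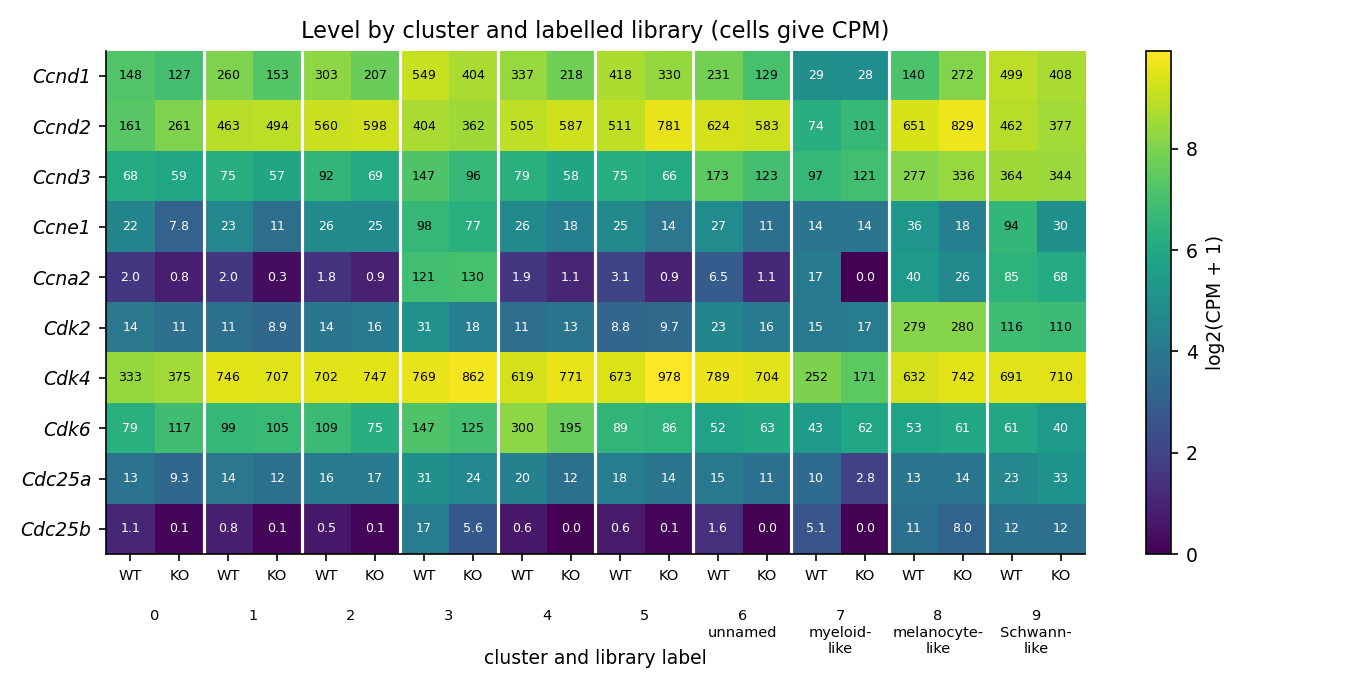
Level of each of the 10 genes (rows) in each cluster and library (columns, WT and KO as labelled), coloured by log2(CPM + 1) with the CPM printed. Ccna2 and Cdc25b stand out in clusters 3, 8 and 9, Cdk6 in cluster 4 and Cdk2 in clusters 8 and 9.

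Cluster by cluster, the genes past 1.5-fold differed, and so did the share of all genes past it. In cluster 0, Ccne1 and Ccna2 were lower (2 of 9 members with at least 20 UMIs, 13.5% of all genes) and Ccnd2 was higher (1 of 9, 7.97%). In cluster 1, Ccnd1, Ccne1, Ccna2 and Cdc25b were lower (4 of 10, 21.6%) and none was higher (5.46%). Cluster 2 had only Ccna2 lower (1 of 9, 18.6%) and none higher (6%), and its interval reached above 0. Cluster 3 had Ccnd3, Cdk2 and Cdc25b lower (3 of 10, 19.4%) and none higher (7.89%). Cluster 4 had Ccnd1, Cdk6 and Cdc25a lower (3 of 8, 16.6%) and none higher (6.82%). In cluster 5, Ccne1 and Ccna2 were lower (2 of 9, 21.2%) and Ccnd2 was higher (1 of 9, 8.45%). There Ccna2 had 5 and 23 UMIs and an interval that reached above 0. These counts are small and were not tested against the share of all genes.

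Outside clusters 0 to 5 the calls were few. Unnamed cluster 6 had Ccnd1 and Ccne1 lower (2 of 8, 18% of all genes) and none higher (8.73%), with Ccnd1 at 231 and 129 CPM. The myeloid-like cluster had 0 of 5 members lower (14.9%) and 0 higher (14.4%). In the Schwann-like cluster Ccne1 and Cdk6 were lower (2 of 9, 12%) and none higher (10.5%), with Cdk6 on 50 and 17 UMIs with an interval that reached above 0. The melanocyte-like cluster had Ccne1 and Ccna2 lower (2 of 9, 10.9%) and Ccnd1 higher (1 of 9, 15.1%).

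Ccnd1 in melanocyte-like cells stood at 140 and 272 CPM (74 and 372 UMIs), a ratio of 1.95 and opposite to its direction in keratin-rich clusters. Cells with at least 20000 CPM from 4 pigment genes (20 and 53 cells), a rule added after seeing the data, held 63.7 and 117 on 15 and 71 UMIs (log2 ratio 0.88, 0.06 to 1.79). In these cells Cdk2 stood at 526 and 531. Ccnd2 there was 696 and 567 and Cdk4 671 and 557, the reverse of their order in the whole cluster (651 and 829, and 632 and 742). The part that RNA of keratinocytes may have in this cluster was not tested.

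**Figure D4:**
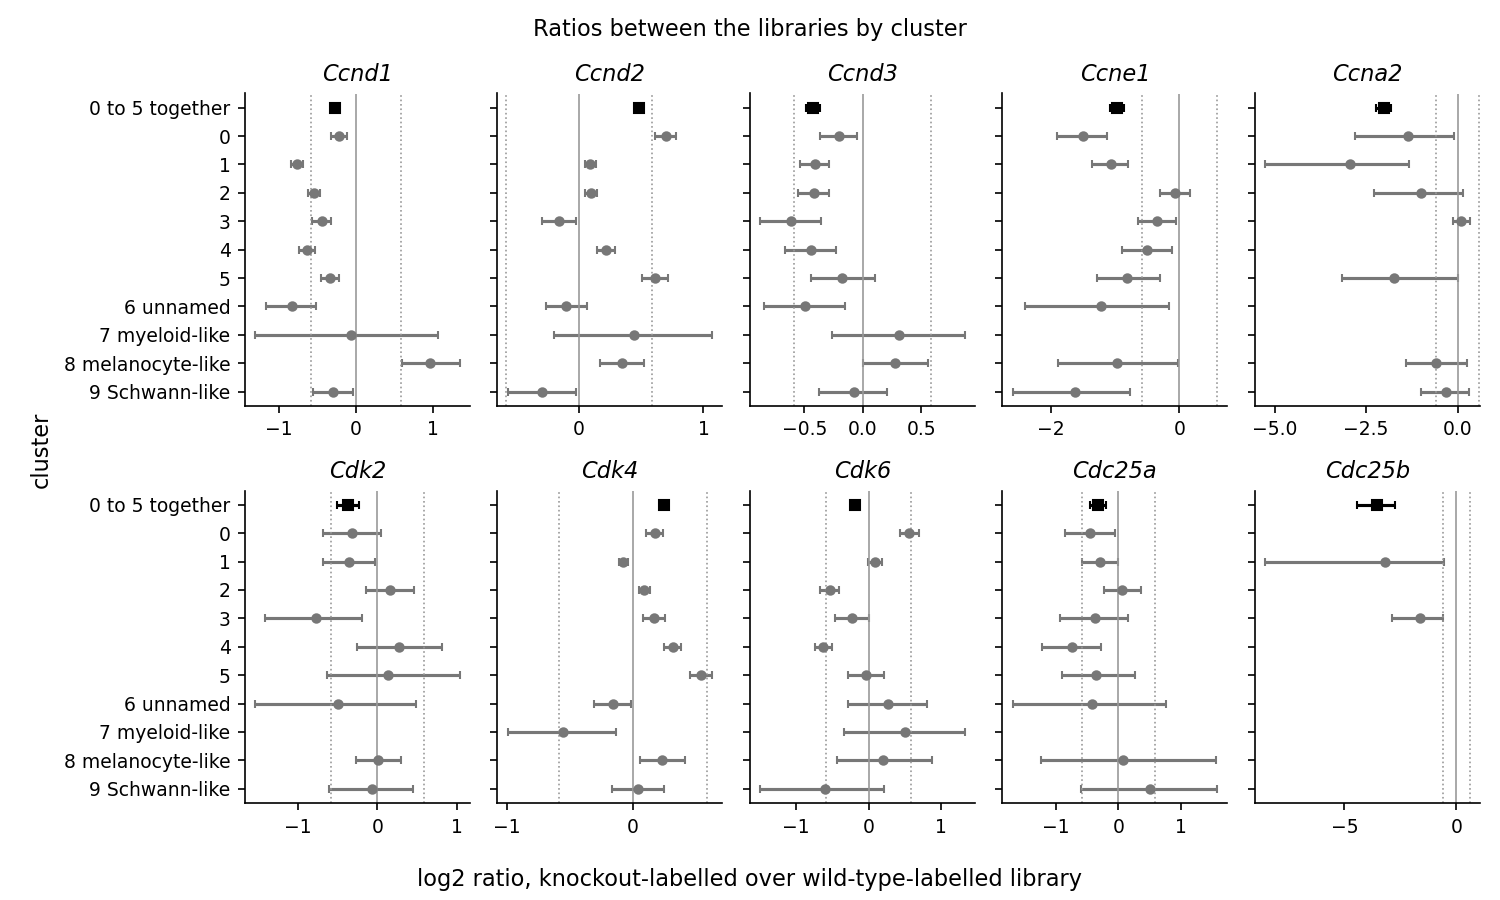
Log2 ratio of the knockout-labelled library over the wild-type-labelled library for each gene in clusters 0 to 5 together (black squares) and in each cluster (grey circles), with conditional exact intervals. Each panel has its own x axis, the dotted lines mark 1.5-fold, and points with fewer than 20 UMIs or with 0 in a library are left out. Ccna2 lies at -2.02 over clusters 0 to 5 but at 0.10 in cluster 3, while Ccnd1 lies below 0 in each of the 6.

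Genes that work with the members were followed in 8 lists, whose counts stand beside the 17.5% of all genes that were lower and the 7.66% that were higher. The counts of the turnover list and of the partner, inhibitor, E2F and checkpoint lists are too small to be called particular to them. Of 18 partner cyclins and kinases tested, 6 passed 1.5-fold downwards and 1 upwards, and their median log2 ratio was -0.05 beside -0.018 for all genes. Lower were Ccne2 (2.96 and 1.14), the other cyclin E gene, Ccnf and genes of mitosis such as Ccnb1 (13.3 and 3.15 CPM), Ccnb2 (30.9 and 8.03) and Cdc25c (3.53 and 0.699), the phosphatase related to Cdc25b. Higher was Cdk14 (2.82 and 6.33), a kinase linked to Wnt signalling. In cluster 3, Ccnb1 stood at 113 and 127, Ccnb2 at 240 and 280 and Cdc25c at 26.5 and 24.6.

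CDK inhibitors split, with 3 of 8 lower and 1 higher and a median of -0.08. Cdkn1c, which encodes p57 and holds back cyclin E and cyclin A kinases, stood at 20.6 and 32.9, and Cdkn2c and Cdkn2d, inhibitors of CDK4 and CDK6, at 2.47 and 0.618 and at 15.1 and 7.74. Cdkn3, a phosphatase that acts on CDKs, stood at 17.1 and 3.45 and was level in cluster 3 (128 and 127). Of the retinoblastoma and E2F families, 5 of 19 were lower and 1 was higher (median -0.21). The lower genes included the late repressors E2f7 (1.74 and 0.341) and E2f8 (1.999 and 0.813) and the mitotic activator Foxm1 (1.77 and 0.667).

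In the list of checkpoint and inhibitory kinases 4 of 13 genes were lower and 0 higher (median -0.29). Lower were Clspn (3.27 and 0.602), which is not itself a kinase, and the mitotic kinases Plk1 (17.5 and 5.87) and Aurka (25.2 and 6.75). The other was Wee1 (63.0 and 31.7), an inhibitory kinase. In cluster 3, Plk1 was higher at 135 and 203 and Aurka stood at 193 and 203. Clspn stood at 25.8 and 20.3 there and Wee1 at 124 and 66.0. Of 24 genes of cyclin and CDC25 turnover 4 were lower and 0 higher (median -0.06). They included Cdc20 (34.5 and 10.70) and Fbxo5 (8.36 and 2.76), which govern the anaphase-promoting complex, and the deubiquitinase Usp28 (1.77 and 0.634). S phase genes under E2F had 12 of 30 lower and 0 higher, with a median of -0.31. Within cluster 3 the counts were 6 and 0 of 30 (median -0.22), beside 19.4% and 7.89% of all genes there. The lower count was thus near the share of all genes. In cluster 2 the counts were 3 and 6 of 29 (median 0.16), beside 18.6% and 6%. Prim1, a primase subunit, stood at 10.6 and 2.68, and Cdc6, which licenses replication origins, at 2.55 and 0.683. Of the G2 and M phase genes 34 of 36 were lower and 0 higher (median -1.87), and the lowest ratios were those of Ttk (1.69 and 0.260), Nuf2 (2.40 and 0.455) and Bub1 (4.59 and 0.878), of the spindle and its checkpoint.

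As with Ccna2, the G2 and M phase list was level within cluster 3, with a median of 0.02. Cluster 3 was picked as the keratin-rich cluster highest in this list, and its cells were grouped with cycle genes in use. Like levels there were thus favoured in advance. With equal weight for each cluster, a mean in which cluster 3 weighs most for such genes, the list had a median of -0.07. It was lower in the other keratin-rich clusters, with medians of -0.79, -1.13, -1.19, -0.58 and -0.63 in clusters 0, 1, 2, 4 and 5. Those medians rest on the 23, 30, 29, 20 and 25 of its 36 genes that had at least 20 UMIs in the cluster. In all 7 genes stand in more than 1 list (Cdk1, Ccnb1, Ccnb2, Cks2, Plk1, Aurka and Cdc20), so the lists are not independent. Over 20 points (10 clusters in 2 libraries) the Pearson correlation of the log2(CPM + 1) of Ccna2 was 0.986 with Plk1, 0.985 with Kif22 and 0.984 with Cdca3, all genes of mitosis. Ccna2 and Cdc25b correlated at 0.961. Ccne1 came closest to Mad2l1 (0.892), Nxt1 (0.884) and Dut (0.883), and Cdc25a to Lsm5 (0.920), Pkmyt1 (0.920) and Tmpo (0.917). These points share libraries and cells, and the values are descriptions.

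The other members had unlike neighbours in the same measure. Ccnd1 came closest to Mprip (0.944), Ptma (0.940) and Luc7l3 (0.935), Ccnd2 to Mff (0.945), Tmem258 (0.928) and Chd3 (0.928), and Ccnd3 to Metrn (0.950), Acat1 (0.929) and Dtnbp1 (0.927). Cdk2 came closest to Ugp2 (0.953), Gstp1 (0.950) and the pigment gene Tyrp1 (0.938), Cdk6 to Nup98 (0.874), Ccdc6 (0.861) and Gnb1 (0.859), and Cdk4, apart from the identifier with shared counts, to Hsp90ab1 (0.952) and Tead2 (0.949). Between members, Ccnd3 correlated with Cdk2 at 0.918 and Ccnd2 with Cdk4 at 0.904.

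**Figure D5:**
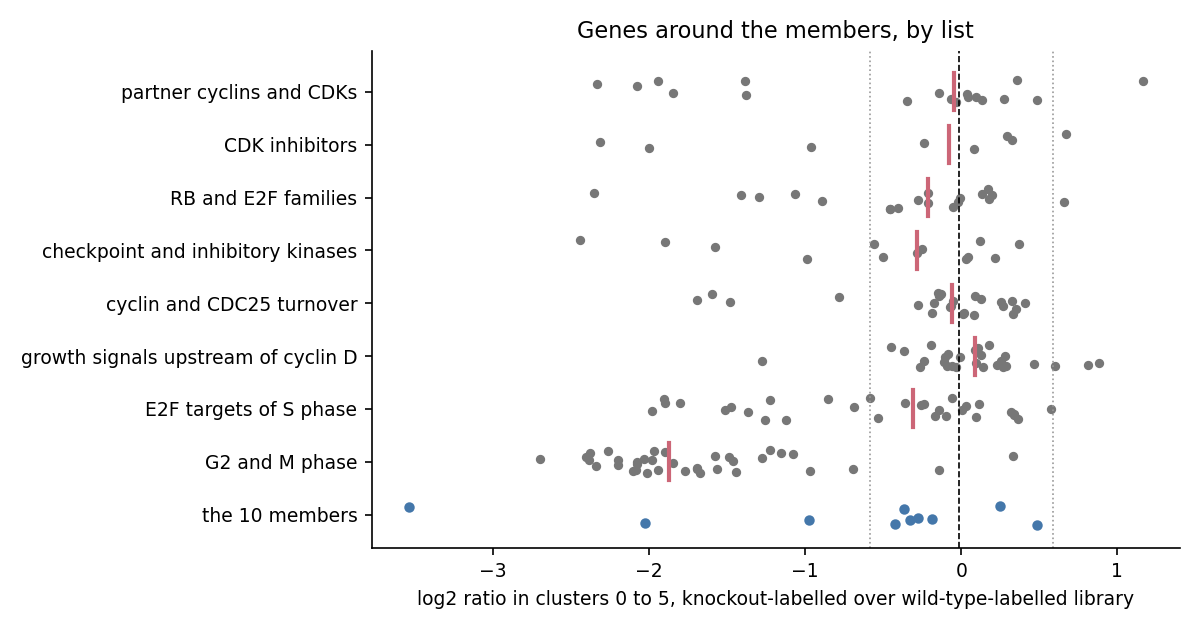
Log2 ratio in clusters 0 to 5 of each gene with at least 20 UMIs in the 8 lists (grey points), with the median of each list (red line), and of the 10 members (blue points, no median). The dashed line is the median of all genes tested (-0.018) and the dotted lines mark 1.5-fold; vertical scatter within a row has no meaning. The G2 and M phase genes lie far to the left, with a median of -1.87.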

How the data were processed

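For each library the authors deposited a matrix of counts with genes in rows and cells in columns, made from 10x Genomics Chromium 3′ v2 libraries of about 6000 viable cells each, per the labels' protocols. The whole numbers were read as UMI counts. The submitters' processing notes list mm10, Cell Ranger 2.1 and Seurat 2.0 and do not say what each did. How strand and introns were treated, how cells were called and whether doublets were removed is not given in the sources used here.

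Cells with at least 500 genes and at most 10% mitochondrial UMIs were kept, which removed 13 and 16 cells. Scrublet, at an assumed rate of 0.02, marked 1 and 7 doublets, which were removed. Of 36528 identifiers, 31049 matched the RefSeq table of GRCm38.p6, and the others held 2.67% of UMIs. Both libraries were clustered together without integration (totals scaled to 10000, log transform, 2000 variable genes, values scaled to at most 10, 30 principal components, 15 neighbours, Leiden resolution 0.5). Cluster names needed 3 markers at 5-fold, so cell types rest on rebuilt names. UMIs were summed per cluster and library. Levels have exact Poisson, ratios conditional exact and shares Clopper-Pearson intervals at 95%. A gene counted as higher or lower at 1.5-fold with at least 20 UMIs in both libraries together, and 3 UMIs served as the floor for a count of 0. The ratio code was checked on simulated Poisson counts with planted ratios. These hold no variation between cells, animals or libraries, so the check says nothing about such variation.

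The members, lists and tests were chosen with earlier results of these data known. Named were all 10 members, Bap1, up to 3 genes with the highest and 3 with the lowest ratio past 1.5-fold per list with at least 100 UMIs, and up to 3 genes most alike per member with at least 500 UMIs, which left out Cdc25b; 1 gene that the rule names is not reported here. Exosc9, Bysl, LTO1, Pmel, Ccne2, Ccnf, Wee1, the genes shared by lists and the gene pairs among members were named after their values were seen. Alternatives were other cell filters, doublets kept, other resolutions, clustering without cycle genes, other cell sets, centring, weighting, thinning and a 2-fold limit. The work used Python 3.11.15, scanpy 1.11.5, numpy 2.4.6, scipy 1.17.1, pandas 2.3.3 and igraph 0.11.9.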

Additional observations from a re-analysis of the deposited data

Results flagged for a closer look

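Several members had opposite directions in a smaller cluster and in clusters 0 to 5, with both intervals clear of 0. No difference between clusters was tested, since each cluster had 1 library per group. Ccnd1 had a log2 ratio of 0.96 in the melanocyte-like cluster against -0.28 in clusters 0 to 5. Ccnd3 had 0.28 in the melanocyte-like cluster against -0.43. Above the common minimum of 10065 UMIs per cell (28 and 44 cells) it had -0.036 there (-0.33 to 0.26). In cells over the pigment level (20 and 53 cells) it had 0.52 (0.21 to 0.85). Ccnd2 had -0.29 in the Schwann-like cluster against 0.48. Cdk4 had -0.16 in unnamed cluster 6 and -0.56 in the myeloid-like cluster against 0.25, and it shares counts with another identifier. The smaller clusters held between 20 and 72 cells per library.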

How the results depend on the processing

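Counts of members past the limit kept to 3 lower and 0 higher with the cell filter off or stricter, with doublets kept, at Leiden resolutions of 0.3 and 1, and with clustering without cycle genes, all cells kept, a common UMI minimum, cluster 3 left out, centring, equal weight for each cell, thinning to 8000 UMIs and leaving out the top cell. The 2-fold limit gave 2 lower and 0 higher. Equal weight for each cluster gave 1 lower and 0 higher. Under it Ccna2 turned to a log2 ratio of 0.0195, Ccne1 stood at -0.52 and Cdc25b at -1.80. For Ccna2 and Cdc25b that setting, a mean of the cluster levels, rests mostly on cluster 3. All cells kept took Cdk2 from -0.37 to 0.01. Over these settings Ccnd2 lay between 0.24 and 0.50, Cdk4 between 0.21 and 0.29 and Ccnd1 between -0.49 and -0.13. No paired analysis was possible because each group has 1 library. Depth limits Cdc25b most, with 14 UMIs over clusters 0 to 5 of the library labelled as knockout. Shares of cells with a UMI moved with the depth of thinning, and the unthinned shares are given beside those at a fixed depth for description.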

Other observations

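Growth signals upstream of cyclin D, with 28 genes tested in clusters 0 to 5, had 1 gene past 1.5-fold downwards and 3 upwards in the knockout-labelled library, and their median log2 ratio was 0.09, beside 17.5% and 7.66% of all genes and a median of -0.018. Fos, an immediate early gene, stood at 79.4 and 32.7 CPM, 2.43-fold lower. It was lower in dividing cluster 3 as well, at 96.6 and 38.6. Higher were Dusp6, a feedback phosphatase of ERK (21.3 and 37.2), Tcf7l2, a transcription factor of Wnt signalling (18.6 and 28.2), and Mycn (1.43 and 2.63). Dusp6 in cluster 3 stood at 27.7 and 78.6.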
